A study of Glycine max with 24 samples.

Results

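Glycinins and beta-conglycinins are the main globulins stored in soybean seeds, and their transcripts were followed here in cotyledons and trifoliate leaves after germination. The loci were taken from a fixed list of 5 glycinin and 4 beta-conglycinin loci, and every transcript of them was read in every library. Together they made up 9 of the 54175 genes and 10 of the 73320 transcripts in the tables. Glyma20g28650 had 2 transcripts in the tables, and each of the other loci had 1.

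The plants were of the cultivar Williams-82 and were grown untreated in growth chambers. Cotyledons were sampled at C-I (4 days after planting, green and not yet open), C-II (15 days, open and green) and C-III (27 days, starting to yellow), as 1 pair of cotyledons for each of 3 biological replicates per stage. Trifoliate leaves from different plants were sampled at L-I, the V3 stage, and at the later stages L-II to L-V, which the labels place 2, 4, 6 and 7 weeks later and the methods 21, 40, 49 and 56 days later, again with 3 replicates each. Seedlings for C-I grew on MS medium in boxes, whereas C-II and C-III came from soil, so stage and growth condition cannot be told apart in the comparisons with C-I, and the 9 cotyledon and 15 leaf libraries were run on different instruments.

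During seed filling, glycinins, which are legumin-type globulins, and beta-conglycinins, which are vicilin-type globulins, are made on the endoplasmic reticulum and packed into protein storage vacuoles of the embryo's cotyledons. After germination, proteases digest them to feed the seedling with amino acids. Their genes are known for strong transcription in the maturing embryo, so transcripts found after emergence are usually regarded as what is left from the seed, although these counts do not separate old from newly made RNA.

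Reads recovered per library, which are reads that matched a single transcript, ran from 2163050 to 20839594 in cotyledon (median 5091676) and from 1852184 to 6887154 in leaf (median 4750294). A limit of detection of 3 reads per library corresponded to normalized counts of 0.833 to 8.96 in the cotyledon libraries and of 1.71 to 8.52 in the leaf libraries. Normalized counts are reads divided by the size factor of the library, and were scaled separately for each tissue, so they are compared within a tissue only. Reads that matched several transcripts had been dropped, so these related genes were counted by the reads that fit one of them alone, and levels are not compared between genes. All 18 light-harvesting or Rubisco small subunit genes used to check for green tissue had reads at every stage. Summed, they took 7351 to 12835 reads per 1000000 recovered reads (RPM) in C-I libraries, 7160 to 8688 RPM in C-II, 3065 to 3362 RPM in C-III and 1937 to 23132 RPM in leaf libraries.

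Storage protein transcripts were still present at C-I, and they were nearly gone at C-III. Over the 9 cotyledon libraries, 2105 reads fell on the 10 transcripts, of which 2019 (95.9%) came from C-I, 64 from C-II and 22 from C-III. At C-I the reads made up 56.5 RPM in replicate 1 (exact Poisson 95% interval 47.4 to 66.9), 46.9 in replicate 2 (42.4 to 51.8) and 90.6 in replicate 3 (86.0 to 95.3). The C-II libraries held 5.09, 2.68 and 2.36 RPM. The C-III libraries held 0.434, 0.912 and 0.254. Every library at C-I was above every library at C-II, and every library at C-II was above every library at C-III. These intervals cover counting error only.

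**Figure D1:**
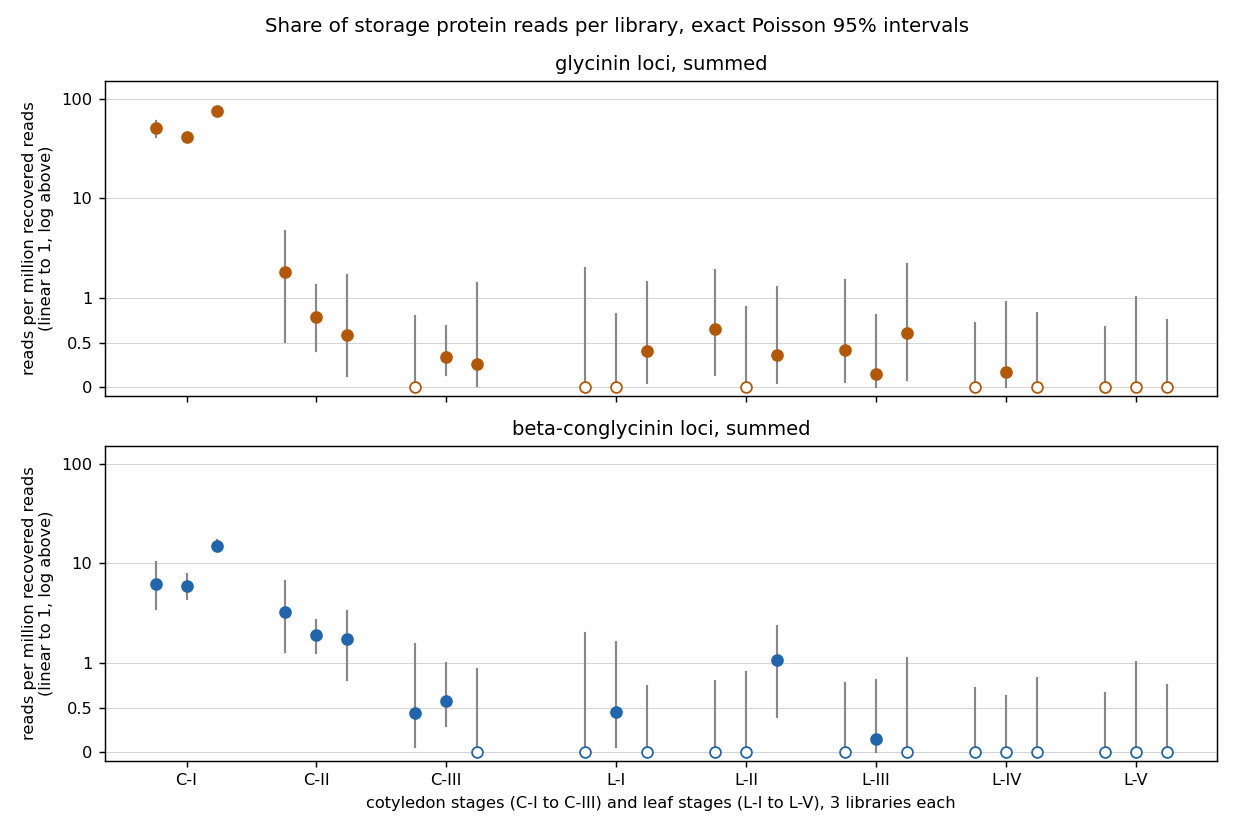
Reads per 1000000 recovered reads (RPM), summed over the 5 glycinin loci (upper panel) and the 4 beta-conglycinin loci (lower panel), in each of 24 libraries, with the axis linear up to 1 and logarithmic above. Points are libraries, open points are libraries with 0 reads and bars are exact Poisson 95% intervals. Glycinin reads lie between 40.95 and 75.6 RPM at C-I and at or below 1.85 in the other libraries shown.

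The glycinins accounted for most of these single-transcript reads at C-I, which is not a comparison of RNA levels between the classes. Their summed level was 387 ± 101 normalized counts in C-I libraries, 6.60 ± 3.74 in C-II and 1.18 ± 1.04 in C-III (SD, n = 3). For the beta-conglycinins the sums were 62.6 ± 31.6, 14.3 ± 4.11 and 1.90 ± 1.71 (SD, n = 3). Neither sum overlapped between any pair of stages. With 3 libraries against 3, the exact two-sided permutation test cannot go below p = 0.1, and each of the 10 tests of summed levels and shares made here gave that value (Benjamini-Hochberg adjusted p = 0.1). In bulk tissue, fewer cells with these transcripts and less RNA per cell cannot be told apart.

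Glyma03g32030.1, a glycinin, had 221, 192 and 268 normalized counts in the libraries of C-I, 2.72, 1.64 and 1.33 at C-II, and 0, 0.833 and 0 at C-III. The stages did not overlap, and at C-III its 3 reads all came from replicate 2, the deepest cotyledon library. Glyma03g32020.3, the glycinin with the nearest locus number, had 50.8, 39.5 and 95.9 at C-I, 2.72, 0.410 and 0 at C-II, and 0 in all libraries of C-III. Its highest C-II library stayed below the lowest C-I library.

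The glycinin Glyma10g04280.1 had 53.7, 36.0 and 66.2 normalized counts at C-I, 0, 0.410 and 1.33 at C-II, and 0 in all C-III libraries. Another glycinin, Glyma19g34780.1, had 20.9, 20.2 and 38.5 at C-I, 0, 1.23 and 1.33 at C-II, and again 0 throughout C-III. In both, C-I lay apart from the later stages. Glyma13g18450.2, also a glycinin, had 11.9, 14.1 and 30.1 at C-I, 5.44, 1.23 and 0 at C-II, and 0, 1.11 and 1.60 at C-III. Its C-II and C-III libraries overlapped, and each of these stages held 5 reads of it.

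The beta-conglycinin Glyma10g39150.1 had 20.9, 18.5 and 41.3 normalized counts at C-I, 8.16, 9.03 and 3.98 at C-II, and 2.37, 3.05 and 0 at C-III. It still had 28 reads at C-II and 13 at C-III, and its stages did not overlap. Glyma20g28640.1, a beta-conglycinin, had 23.9, 24.6 and 50.6 at C-I, 10.9, 2.87 and 7.97 at C-II, and 0, 0.278 and 0 at C-III. These stages did not overlap either. The remaining beta-conglycinin transcripts had few reads that matched a single transcript, and any reads shared by both transcripts of Glyma20g28650 had been dropped. Glyma20g28650.1 had 4 reads and Glyma20g28650.2 had 8, all in replicate 3 of C-I, and Glyma20g28660.1 had 1 read in replicate 2 and 6 in replicate 3 of C-I. None of these 3 transcripts had a read at C-II or C-III.

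**Figure D2:**
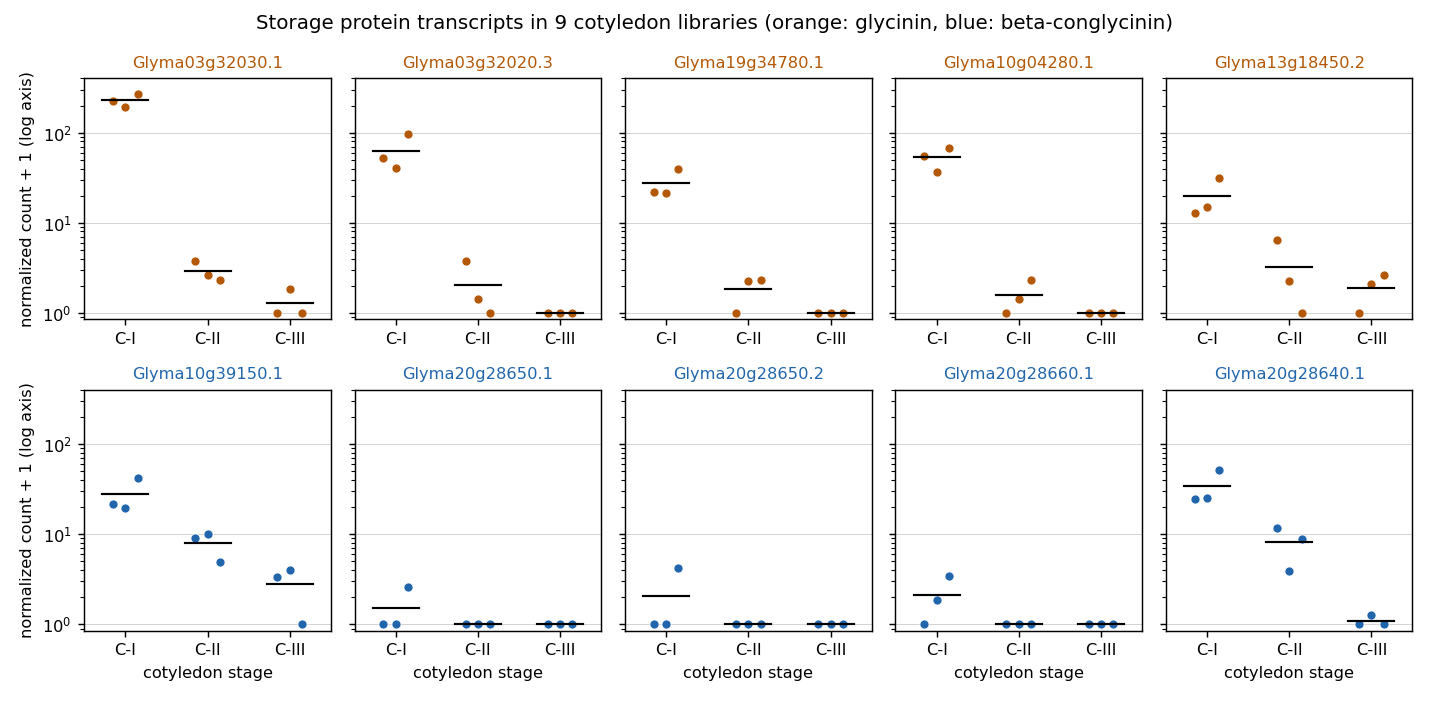
Normalized count plus 1, on a logarithmic axis, of each of the 10 storage protein transcripts at C-I, C-II and C-III. Points are the 3 libraries of a stage and horizontal lines are means, with glycinins in orange and beta-conglycinins in blue. Every C-I library lies above every C-II and C-III library except in Glyma20g28650.1, Glyma20g28650.2 and Glyma20g28660.1, which have no reads at C-II or C-III. The share of all transcripts whose stages separate in this way was not counted. The 5 glycinins reached 10 reads in a stage only at C-I.

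Of the 10 transcripts, 7 had the 10 reads in a whole stage that the filter asked for and were tested with limma. The 5 glycinins passed only through C-I, Glyma20g28640.1 also passed at C-II and Glyma10g39150.1 at every stage. A transcript that passes only through C-I had to be lower elsewhere, so the number of calls is no support for a fall in these genes as a group. The p-values measure the spread between the replicate libraries of these stages. A transcript was called when its adjusted p was under 0.05 and its log2 fold change exceeded 1.5 in size, on the log2(normalized count + 1) scale, which understates the changes of low transcripts.

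At C-II against C-I, 7 of 7 tested transcripts were called as lower, where 13.8% of all 53357 tested transcripts were. The fitted falls of the 5 glycinins exceeded those of both tested beta-conglycinins. The glycinins had passed the filter only through C-I and these beta-conglycinins also at C-II, so the filter itself favours this order. The beta-conglycinin transcripts left out by the filter had no reads at C-II. Without C-II replicate 3, the changes of Glyma13g18450.2 and Glyma20g28640.1 were close, at -2.27 and -2.24. A difference between the classes was not tested with these fits. Glyma03g32030.1 fell by 6.32 on the log2 scale (standard error 0.43, limma, Benjamini-Hochberg adjusted p = 2.01e-07), and 0.298% of the tested transcripts fell as far or farther. Glyma10g04280.1 fell by 5.11 (adjusted p = 4.57e-06) and Glyma03g32020.3 fell by 5.08 (adjusted p = 1.61e-05). Glyma19g34780.1 fell by 3.93 (adjusted p = 6.47e-05) and Glyma13g18450.2 fell by 2.91 (adjusted p = 0.00488). Among the beta-conglycinins, Glyma20g28640.1 fell by 2.10 (standard error 0.53, limma, adjusted p = 0.00674) and Glyma10g39150.1 fell by 1.77 (standard error 0.59, limma, adjusted p = 0.0298). As far a fall as that of Glyma10g39150.1 was seen in 12.1% of the tested transcripts. Its call was lost without C-I replicate 3 (log2 fold change -1.42, adjusted p = 0.126), without C-II replicate 3 (-1.45, adjusted p = 0.0983) and with RPM in place of size factors (-1.65, adjusted p = 0.0781), and with a pseudocount of 5 its change of -1.36 was inside the fold limit. With a pseudocount of 0.1 in place of 1, Glyma13g18450.2 (adjusted p = 0.0538), Glyma20g28640.1 (adjusted p = 0.0624) and Glyma10g39150.1 (adjusted p = 0.236) were not called. The median log2 fold change was -5.08 over the 5 tested glycinins and -1.94 over the 2 tested beta-conglycinins, beside -0.07 over all tested transcripts. The class medians have the same limit from the filter.

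In pooled reads, which give deeper libraries more weight, the glycinins were 80.6-fold lower at C-II than at C-I (exact 95% interval 51.5 to 134) and the beta-conglycinins 6.22-fold lower (4.54 to 8.70). These intervals cover the counting of reads and not the spread between libraries. Without C-I replicate 3, the beta-conglycinins were 3.49-fold lower (2.35 to 5.22). The glycinin share of all reads on the 9 loci, which is a share of single-transcript reads and not of RNA, was followed by library. It was 36.4%, 29.3% and 25.0% at C-II, against 88.9%, 87.3% and 83.4% at C-I. The means were 30.2% ± 5.74 at C-II and 86.5% ± 2.81 at C-I (SD, n = 3). The difference of -56.3 percentage points was larger than either SD. The exact two-sided permutation test gave p = 0.1, the smallest possible here, so it does not measure the size of this difference. The C-II shares rest on 11, 41 and 12 reads, with exact binomial 95% intervals of 10.9% to 69.2%, 16.1% to 45.5% and 5.49% to 57.2%. The lowest bound at C-I was 81.4%, so no interval of C-II reached those of C-I. At C-III the share could not be given with any precision, since 0 of 2, 7 of 19 and 1 of 1 reads were from glycinins.

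**Figure D3:**
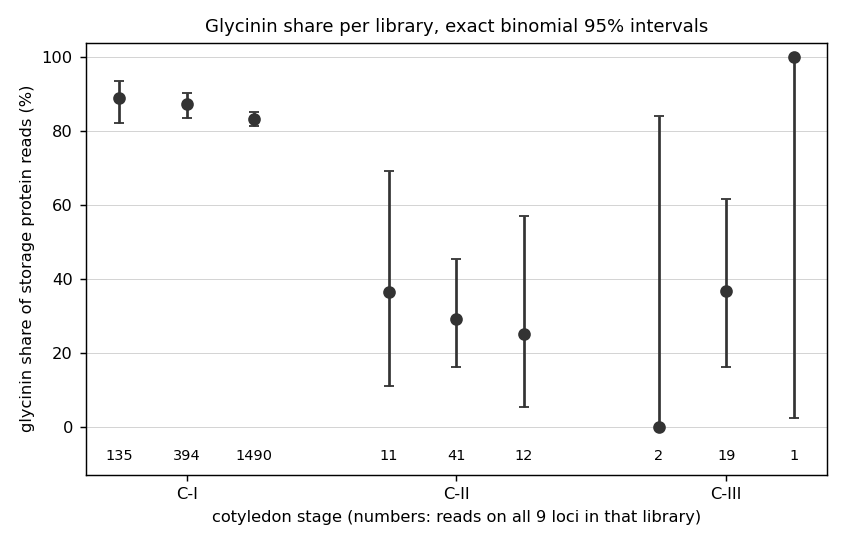
Glycinin share, in percent, of the reads on the 9 storage protein loci in each cotyledon library, with the total number of such reads printed under each point. Bars are exact binomial 95% intervals. The share is 83.4% or higher in the C-I libraries and 36.4% or lower in the C-II libraries, and the C-III intervals are wide.

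At C-III against C-I, 7 of 7 tested transcripts were again called as lower, beside 16.8% of all tested transcripts. Both comparisons share the C-I libraries. Glyma03g32030.1 fell by 7.53 on the log2 scale (standard error 0.43, limma, adjusted p = 2.20e-08). The other glycinins had log2 fold changes of -5.88 (Glyma03g32020.3), -5.69 (Glyma10g04280.1), -4.72 (Glyma19g34780.1) and -3.37 (Glyma13g18450.2). Glyma20g28640.1 fell by 4.88 and Glyma10g39150.1 fell by 3.46 (limma, adjusted p = 7.52e-06 and 0.000348). With the 3-read limit taken over the stage, Glyma03g32020.3, which had no read at C-III, was at least 128-fold lower there than at C-I. On the same basis Glyma10g04280.1 was at least 95.5-fold lower and Glyma19g34780.1 at least 53.7-fold lower. Without C-I replicate 3, the bounds for Glyma03g32020.3 and Glyma19g34780.1 were 71.2-fold and 34.4-fold. Without C-III replicate 2, the deepest library, the bounds for Glyma03g32020.3, Glyma10g04280.1 and Glyma19g34780.1 were 37.2-fold, 27.7-fold and 15.6-fold. Pooled reads were 273-fold lower at C-III for the glycinins (exact 95% interval 138 to 633) and 28.5-fold lower for the beta-conglycinins (16.7 to 52.8), counting error only. Without C-III replicate 2, which leaves 1 glycinin and 2 beta-conglycinin reads at the stage, these were 633.5-fold (114 to 25037) and 57.9-fold (15.9 to 480.2). The beta-conglycinin value was 15.99-fold (8.88 to 30.9) without C-I replicate 3.

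From C-II onwards, only the beta-conglycinin Glyma20g28640.1 passed the test. It fell by 2.78 on the log2 scale at C-III against C-II (standard error 0.53, limma, adjusted p = 0.00308), the 1 call among 7 tested transcripts, beside 4.93% called as lower among all. With a pseudocount of 5 its change was -1.21 (adjusted p = 0.0199), inside the fold limit. For Glyma10g39150.1 the log2 fold change was -1.69 (adjusted p = 0.0707), not past the limit. For Glyma03g32030.1 it was -1.21 (adjusted p = 0.0733), and with a pseudocount of 0.1 it was -3.18 and called (adjusted p = 0.0405). The other glycinins were between -0.80 and -0.46 with 0 to 5 reads per stage, too few to show a difference at this depth. In pooled reads, Glyma10g39150.1 was 3.07-fold lower at C-III (exact 95% interval 1.54 to 6.46), or 5.79-fold (1.46 to 50.2) without C-III replicate 2 and 2.09-fold (0.651 to 5.89), an interval that spans no change, without C-II replicate 2. The interval for Glyma13g18450.2, 0.328 to 6.20 around 1.43, spanned no change.

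**Figure D4:**
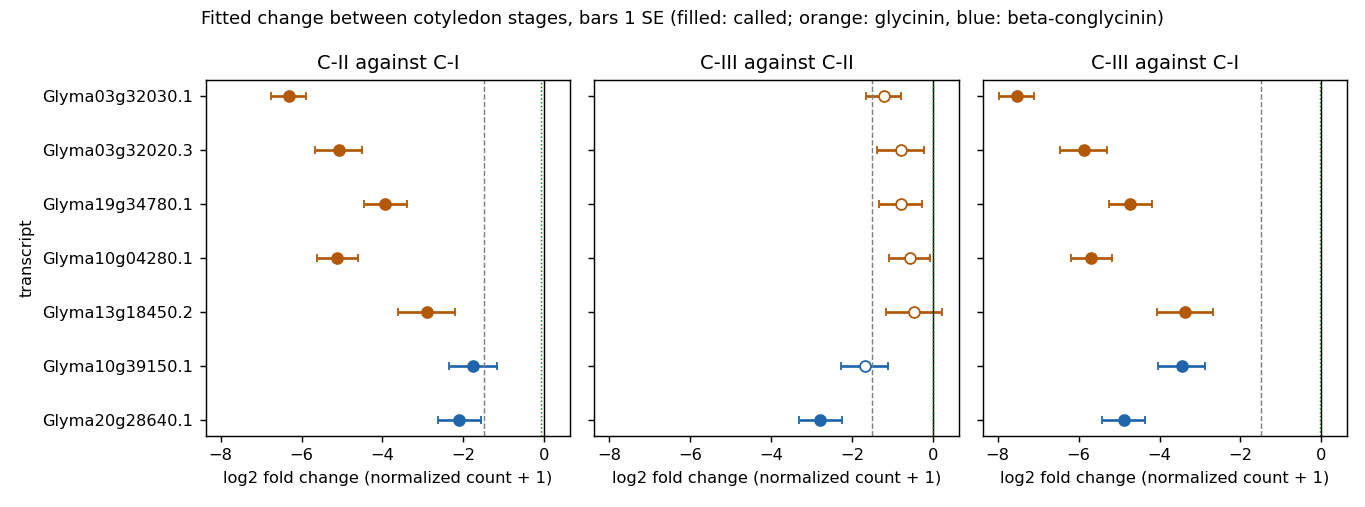
Fitted log2 fold changes of the 7 tested transcripts at C-II against C-I, C-III against C-II and C-III against C-I, on the log2(normalized count + 1) scale. Bars are 1 standard error, filled points were called, the dashed line marks a log2 fold change of -1.5 and the dotted line the median of all tested transcripts. Glycinin changes lie between -6.32 and -2.91 at C-II against C-I, and between -1.21 and -0.46 at C-III against C-II.

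Residual storage protein RNA at C-III was near the limit of detection, with 2, 19 and 1 reads in replicates 1, 2 and 3. Only replicate 2, the deepest cotyledon library, was above the limit of 3 reads. The 22 reads at C-III were 0.749 RPM among the 29377776 reads of the stage (exact Poisson 95% interval 0.469 to 1.13). They came from 4 transcripts, with 13 reads of Glyma10g39150.1, 5 of Glyma13g18450.2, 3 of Glyma03g32030.1 and 1 of Glyma20g28640.1. The other 6 transcripts had 0 reads, which allows up to 0.102 RPM for each. Replicate 2 held 19 of the 22 reads. Without it the stage was at 0.351 RPM, from 3 reads.

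The C-I libraries also differed among themselves. Replicate 3, the deepest C-I library, had the highest normalized count for each of the 10 transcripts, some of which had as few as 4 reads at C-I. Over the 7 with at least 10 reads, it was 1.30 to 2.32 times the mean of the other C-I libraries. Over 34538 transcripts with a mean normalized count of at least 10 the median of this ratio was 0.970, and replicate 3 was highest in 26.3% of them. Only 5 of the 10 storage protein transcripts reached that mean. Without replicate 3, the summed level at C-I was 375 normalized counts (330.3 for glycinins and 44.4 for beta-conglycinins), against 449 with it. Glyma03g32030.1 took 54.8%, 55.6% and 44.8% of the storage protein reads in replicates 1, 2 and 3.

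In the leaf, the storage protein transcripts were at the edge of detection. Reads on the 9 loci numbered 22 among 69826458 in 15 libraries, or 0.315 RPM (exact Poisson 95% interval 0.197 to 0.477). Only replicate 3 of L-II was above the limit of 3 reads, with 8 reads, and 7 libraries had none. Without that library, 14 reads or 0.218 RPM remained. The value at C-III beside it, 0.749 RPM, came from another instrument and another set of libraries and was not tested against it.

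The leaf reads came from 3 transcripts. Glyma19g34780.1 had 9 reads in 6 libraries, with 1 or 2 in each, at L-I to L-IV. Glyma10g39150.1 had 9 reads in 3 libraries, with 2 in replicate 2 of L-I, 6 in replicate 3 of L-II and 1 in replicate 2 of L-III. Glyma03g32030.1 had 4 reads, 2 in replicate 1 of L-II and 2 in replicate 3 of L-III. Replicate 3 of L-II alone thus held 8 of the 22 leaf reads. The other 7 transcripts had 0 reads in all leaf libraries, which allows up to 0.043 RPM for each.

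By stage, the leaf had 4 reads in the L-I libraries, 11 in L-II, 6 in L-III, 1 in L-IV and 0 in L-V. None of the 10 transcripts passed the filter in leaf, so 0 were called, beside shares of all tested transcripts called in either direction of 14.7% (L-II against L-I), 1.92% (L-III against L-II), 2.54% (L-IV against L-III), 0.0491% (L-V against L-IV) and 31.1% (L-V against L-I). Without the filter, limma tested the 3 transcripts with reads, and 0 had an unadjusted p below 0.05 in any of these comparisons. The 6 libraries of L-IV and L-V together held 1 read, or 0.0340 RPM (exact Poisson 95% interval 0.000861 to 0.190), against 21 reads in the 9 libraries of L-I to L-III, or 0.519 RPM (0.322 to 0.794). Without L-II replicate 3, L-I to L-III held 13 reads, or 0.372 RPM (0.198 to 0.637). There were 2 or more reads in 0 of the 6 later libraries, against 7 of the 9 earlier ones. This grouping was made after the values were seen and was not tested.

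**Figure D5:**
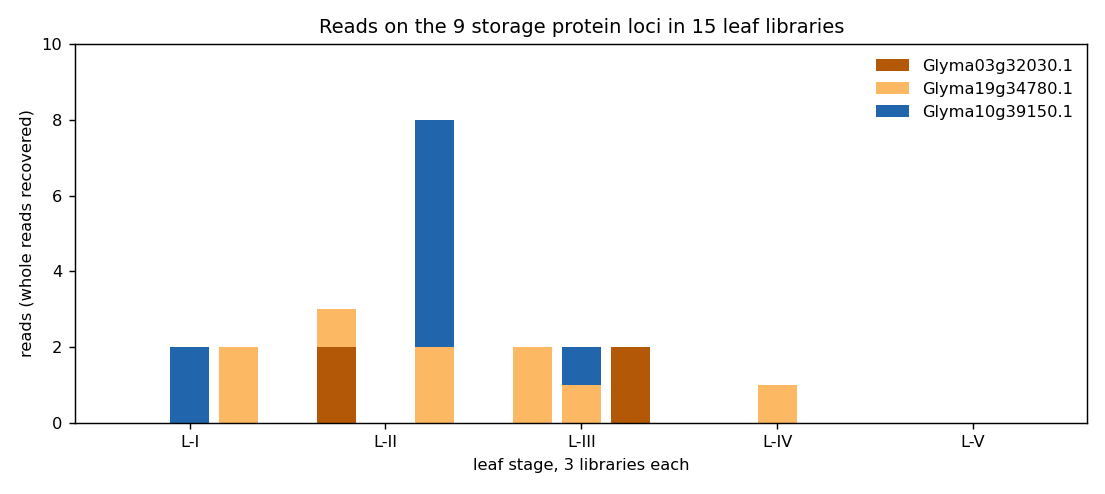
Reads on the 9 storage protein loci in each of the 15 leaf libraries, stacked by transcript. Bars are whole reads, with 3 libraries per stage from L-I to L-V. Replicate 3 of L-II holds 8 reads, no other library holds more than 3, and the L-V libraries hold 0.

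Likeness was measured against the log2 of the summed normalized counts of the members over the 9 cotyledon libraries, which gives abundant members more weight. The most alike transcripts were Glyma19g36990.2, Glyma04g02740.1, Glyma08g15960.5, Glyma08g45531.1 and Glyma16g26291.1, with Pearson's r of 0.993 to 0.994. Of the 34845 candidates, 9.36% had r over 0.9, and all points share the same libraries and their stage difference. Glyma08g45531.1 had 68.3 ± 33.6 normalized counts in C-I libraries, 4.34 ± 1.48 in C-II and 0.185 ± 0.321 in C-III (SD, n = 3) and 2 leaf reads in all. The others had 83 to 2241 leaf reads, so their likeness was limited to the cotyledon.

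Other genes of seed reserves were taken by annotation text, which covered only 3935 genes that the study had listed, many of them because they changed in these libraries, so the counts are no independent evidence. Over all tested transcripts, 16.8% were lower and 14% higher at C-III against C-I. The albumin and lipid-transfer superfamily, which includes small seed storage albumins, had 13 of 24 tested transcripts lower and 6 higher in this comparison. Its largest fall was in Glyma17g32100.1, which averaged 2.43 ± 0.87 normalized counts at C-III, against 8586 ± 1100 at C-I (SD, n = 3). In the same superfamily Glyma18g05890.1 was higher, at 673 ± 480 normalized counts at C-III, against 10.8 ± 11.5 at C-I. Its highest mean was at C-II, with 8289 ± 4687, so it did not rise steadily. Both tested Kunitz-type inhibitors, which block digestive proteases, were lower at C-III, and Glyma16g33800.1 had 2.16 ± 3.27 normalized counts there, against 3130 ± 590 at C-I. Falls of these lists were not limited to the cotyledon. In leaf at L-V against L-I, both tested inhibitors were lower (median log2 fold change -7.00). Of 26 tested transcripts of the albumin and lipid-transfer superfamily, 22 were lower and 2 higher (median -4.65). Over all tested leaf transcripts, 31.1% were called in either direction. Of the tested transcripts with late embryogenesis abundant in their annotation, 1 of 14 was lower and 5 were higher at C-III against C-I. Glyma12g31320.1, which was lower, and Glyma19g38570.2 and Glyma03g35930.1, which were higher, were annotated as a hydroxyproline-rich glycoprotein family of that name.

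Transcripts of proteases linked to reserve mobilization went mostly the other way. Of 15 tested, 10 were higher and 2 lower at C-III against C-I, where 14% of all tested transcripts were higher, with a median log2 fold change of 3.57 beside -0.03 over all tested transcripts. In leaf, 13 of 15 tested transcripts of this list were higher and 2 lower at L-V against L-I. The median log2 fold change over the list was 5.31 there, and 31.1% of all tested leaf transcripts were called in either direction. In cotyledon, Glyma14g10620.4, annotated as an alpha-vacuolar processing enzyme, had 2280 ± 154 normalized counts at C-III, against 19.9 ± 9.40 at C-I (SD, n = 3). Glyma04g36470.1, a cysteine proteinase, had 1004 ± 131 at C-III, against 3.10 ± 2.75 at C-I. The 2 lower transcripts were Glyma19g41120.1, also annotated as a cysteine proteinase, and Glyma18g20936.1, annotated as serine carboxypeptidase-like. Glyma19g41120.1 had 555 ± 18.1 normalized counts at C-III, against 1686 ± 322 at C-I. It had the highest C-I mean of the 4 proteases named here. Glyma18g20936.1 had a log2 fold change of -2.54. The green tissue genes fell over the same interval, with 20 of 22 tested transcripts lower, beside 16.8% of all, and a median log2 fold change of -3.57. Their part in the change of the storage protein transcripts was not tested.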

How the data were processed

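The authors aligned paired-end reads to Gmax_189 transcripts with Bowtie, allowing 1 mismatch, and kept only reads that matched a single transcript. For each tissue the authors deposited a table of log2 values, made by them with the size factors and variance stabilization of DESeq (1.0). Inverting the transformation gave normalized counts, and for 1999 transcripts per tissue the largest relative gap to those of the study's supplement was 4.89e-06. Within a library they were whole multiples of a single value (largest gap 0.00104 of a read, tolerance 0.05), which gave whole reads. Because the tables hold log2 values and not counts, the main test was limma on log2(normalized count + 1), in one fit per tissue with an intensity trend.

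A transcript was tested when 1 or more stages held 10 reads of it in all, with Benjamini-Hochberg adjustment over all tested transcripts. The leaf stages numbered 1, 3, 5, 7 and 8 in the labels are called L-I to L-V here, in that order. Intervals are exact Poisson or Clopper-Pearson at 95%. R 4.3.3, limma 3.58.1, Python 3.11.15 and scipy 1.17.1 were used, and the fit was tested on simulated data.

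All transcripts of the 9 loci are named. Other genes are up to 2 called rises and 2 called falls per list, and the 5 transcripts most alike by Pearson's r. Lists of oil body proteins, regulators of storage protein genes and glyoxylate cycle enzymes found 0 genes by text. The members and lists were chosen with earlier results of these data known. The alternatives were pseudocounts, filters, scaling, the deposited values, voom weights, adjusted p alone, 2-stage fits, sums per locus, a replicate block and each library left out, which for pooled folds was added after seeing the data. Promoters, proteins and genome coordinates of the loci were not analysed here.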

Additional observations from a re-analysis of the deposited data

How the results depend on the processing

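The number of storage protein transcripts called was 7 at C-II against C-I, 7 at C-III against C-I and 1 at C-III against C-II. A pseudocount of 0.1 gave 4 at C-II against C-I and 2 at C-III against C-II, and a pseudocount of 5 gave 0 at C-III against C-II. With single libraries left out, the counts were 6 to 7 at C-II against C-I, 7 at C-III against C-I and 1 at C-III against C-II, and 0 in each leaf comparison. Leaf libraries above the limit of 3 reads numbered 1, and 7 with a limit of 1 read. With single libraries left out this number was 0 to 1, and 0 without replicate 3 of L-II. In cotyledon, 7 libraries were above the limit, and 6 to 7 with single libraries left out. Replicates with the same number did not deviate together (correlations of -0.08 to 0.07 in cotyledon and -0.20 to 0.20 in leaf), so the numbers were not taken as pairs. With the number as a replicate block, the counts were 7, 7 and 1 in cotyledon and 0 in leaf. The small number of storage protein reads limits the later stages most, since glycinin levels at C-II rest on 19 reads and all levels at C-III on 22.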
